A study of Homo sapiens with 10 samples.

Results

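The ZIC genes encode transcription factors with a row of zinc fingers related to those of the GLI proteins. ZIC1, ZIC2, ZIC4 and ZIC5 were followed here, 4 of the 42335 gene symbols measured, and they were taken by name from the table of expression values. Bulk RNA sequencing had been done on cells of H9, a human embryonic stem cell line, during neural differentiation. The edited cells carry the genotype SOX1-OT V1 PAKI and are called V1PAKI. The comparison line is wild-type H9 and is called Ctrl. The labels spell out neither PAKI nor whether V1PAKI is a clone. Each line gave 1 library at each of 5 stages: d0 (stem cells), d4 (embryoid bodies kept in suspension without FGF-2), d10 (attached culture in neural medium) and 2 arms at day 16, d16D and d16V. The letters D and V are not explained in the labels. Per the labels' protocols, the cultures directed toward ventral telencephalon were given Shh, the Sonic hedgehog protein, together with the pathway activator SAG from day 10 onward. NKX2-1, a transcription factor of the ventral forebrain, was at 44.8 FPKM in V1PAKI d16V and 67.5 FPKM in Ctrl d16V, against 0.0826 FPKM in V1PAKI d16D and 0.0145 FPKM in Ctrl d16D. Here d16V is therefore read as the hedgehog-treated arm. The level of PTCH1, a hedgehog receptor gene described below, also went into this reading. FPKM, the fragments counted for a gene relative to its transcript length and to the size of the library, is scaled by length, so levels of different genes can be set side by side.

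ZIC proteins bind GC-rich DNA, and some of them can act together with or against GLI proteins, the transcription factors at the end of the hedgehog pathway. In vertebrate embryos ZIC1 marks the dorsal neural tube, the dorsal midline of the brain, neural crest progenitors and the meninges, and ZIC4 overlaps with it. Deletions that remove human ZIC1 and ZIC4 together have been found in patients with Dandy-Walker malformation of the cerebellum. ZIC2 mutations cause holoprosencephaly, a failure of the forebrain to divide, and in mouse embryonic stem cells the protein occupies enhancers. ZIC5 is needed for neural tube closure and neural crest in mice.

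The 4 genes form 2 pairs that lie head to head, each pair transcribed outward from a shared upstream stretch. In RefSeq annotation of GRCh38.p14, ZIC4 lay at chr3:147386046-147406543 on the minus strand and ZIC1 at chr3:147409365-147416719 on the plus strand, with their starts 2822 bases apart. ZIC5 lay at chr13:99962964-99971909 on the minus strand and ZIC2 at chr13:99981784-99986765 on the plus strand, with starts 9875 bases apart. In GENCODE release 29 2 of the 5 ZIC1 transcript models start inside ZIC4, at positions 147393422 and 147393895 of chromosome 3, and the 2 genes share 176 exonic bases, of 6806 for ZIC1 and 8568 for ZIC4. ZIC4-AS1, a noncoding transcript, lies wholly inside ZIC4 exons. Neither the authors' annotation nor their treatment of strand is given in the sources used here, so reads from these shared stretches cannot be told apart. ZIC2 and ZIC5 share no exonic base.

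**Figure D1:**
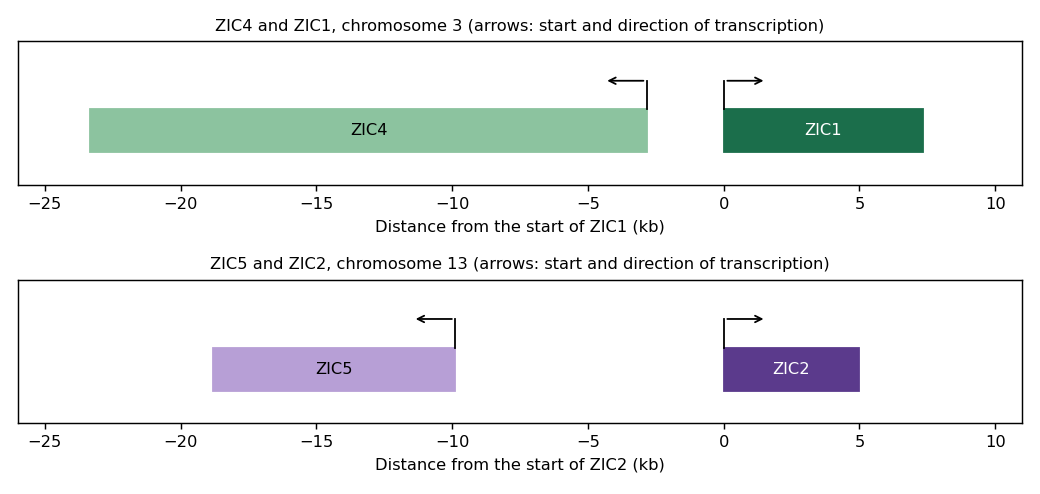
Map of both gene pairs, with distance in kilobases from the start of ZIC1 (upper panel) and of ZIC2 (lower panel) on the horizontal axis. Boxes are the RefSeq gene spans and arrows mark the start and direction of transcription. In each pair the genes point away from each other, with starts 2.82 kb apart for ZIC4 and ZIC1 and 9.88 kb apart for ZIC5 and ZIC2.

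The upstream sequences are shown because the pairs behaved differently in these cultures, ZIC1 near 0 in stem cells and ZIC2 and ZIC5 high. Each is the stretch just before the RefSeq start, read 5′ to 3′ on the gene's own strand. Capitals mark CCAAT, the core of the CCAAT box, and GGGCGG, the GC box, on either strand. The windows are chr3:147409115-147409364 for ZIC1, chr13:99981534-99981771 for ZIC2 and chr13:99971910-99972159 for ZIC5, the last on the minus strand.
ZIC1: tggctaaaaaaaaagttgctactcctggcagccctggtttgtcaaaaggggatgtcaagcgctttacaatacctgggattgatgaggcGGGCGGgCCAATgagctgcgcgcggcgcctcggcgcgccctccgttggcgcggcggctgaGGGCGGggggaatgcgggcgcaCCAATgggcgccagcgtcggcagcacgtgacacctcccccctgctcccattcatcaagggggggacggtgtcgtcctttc
ZIC2: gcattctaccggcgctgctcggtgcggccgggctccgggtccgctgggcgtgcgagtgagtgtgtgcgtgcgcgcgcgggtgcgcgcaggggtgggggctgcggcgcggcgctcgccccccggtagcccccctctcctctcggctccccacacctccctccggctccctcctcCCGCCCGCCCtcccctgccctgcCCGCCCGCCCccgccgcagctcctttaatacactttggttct
ZIC5: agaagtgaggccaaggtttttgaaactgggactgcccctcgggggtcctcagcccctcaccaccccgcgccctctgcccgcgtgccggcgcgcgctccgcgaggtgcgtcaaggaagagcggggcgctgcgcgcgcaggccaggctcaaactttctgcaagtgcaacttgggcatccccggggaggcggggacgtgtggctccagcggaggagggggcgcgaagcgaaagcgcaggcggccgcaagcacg
The ZIC2 stretch stops 12 bases short of the RefSeq start, where a GENCODE exon begins, and the ZIC4 window lay entirely inside GENCODE exons, so its sequence is not shown.

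Over the 250 bases before each start, ZIC1 held 2 CCAAT cores, 155 and 80 bases before its start, and 2 GC boxes. ZIC2 held 4 GC boxes and no CCAAT core. The 4 boxes of ZIC2 form 2 runs, in each of which neighbouring copies on the minus strand share their ends. Neither motif occurred in the windows of ZIC5 and ZIC4. Among 35114 human promoter windows of the same length, 32.0% held CCAAT and 42.6% held GGGCGG on either strand. CACGTG, the E-box core, occurred 1 time, in ZIC1, and in 6.35% of all windows. TATAAA (10.7% of all windows), the SOX-like ACAATGG (2.62%) and the octamer ATGCAAAT (1.63%) were not in any of the 4 windows. GC content was 64.4% for ZIC1, 42.8% for ZIC4, 75.6% for ZIC2 and 70.4% for ZIC5, against a median of 58% over all windows. ZIC1 had 23 CpG dinucleotides, ZIC4 9, ZIC2 31 and ZIC5 28, against a median of 11. ZIC4 thus had fewer CpGs than the median window and the other three had more.

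SOX1, a neural progenitor transcription factor that the study pairs with SOX1-OT, was at 10.9 FPKM in V1PAKI and 32.6 FPKM in Ctrl at d16D, and at 7.38 FPKM in V1PAKI and 18.7 FPKM in Ctrl at d16V. SOX1-OT itself was at 0.212 FPKM in V1PAKI and 1.87 FPKM in Ctrl at d16D, and at 1.22 FPKM in V1PAKI and 3.51 FPKM in Ctrl at d16V. FPKM summed to between 200509 and 256270 per library, and the sequencing depth is unknown. The 16 pluripotency markers summed to 1821 FPKM in V1PAKI and 1970 FPKM in Ctrl at d0, with no marker of that list at 0. Cultures differed in non-neural RNA. At d16D the 10 endoderm markers summed to 2381 FPKM in V1PAKI and 417 FPKM in Ctrl, and the 12 markers of meninges and mesenchyme to 1103 FPKM in V1PAKI and 181 FPKM in Ctrl. At d16V the order was the other way, with endoderm sums of 22.2 FPKM in V1PAKI and 250.3 FPKM in Ctrl and meninges and mesenchyme sums of 25.6 FPKM in V1PAKI and 307 FPKM in Ctrl. The V1PAKI d16D library thus stood apart by its endoderm sum. Below, the changes of ZIC1 and ZIC4 between d16D and d10 and between the arms, and the ZIC1 line difference, are also given without it. Estimates for day 16 against d0 and for the gene lists include it.

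ZIC1 was near 0 FPKM in stem cells and embryoid bodies and reached its highest level in the d16D arm, where it stood above 93.5% of all genes in V1PAKI and 97.3% in Ctrl. In V1PAKI it was at 0.0949 FPKM at d0, 0.0209 at d4, 0.745 at d10, 13.1 at d16D and 2.31 at d16V. In Ctrl it was at 0.0341 FPKM at d0, 0.103 at d4, 1.25 at d10, 27.1 at d16D and 6.43 at d16V. Both lines thus gave the order d16D, d16V, d10 and then the earliest stages. The values of the 2 lines at a stage did not overlap with those at the next stage in that order, except that d0 and d4 overlapped. The share of all genes that separate in this way was not counted. ZIC1 varied more across the libraries (SD of log2(FPKM + 1) 1.73) than 99.2% of the 15779 genes that had at least 1 FPKM in at least 2 libraries.

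ZIC4 followed the same order at a lower level. In V1PAKI it was at 0.0193 FPKM at d0, 0.0165 at d4, 0.168 at d10, 1.78 at d16D and 0.338 at d16V. In Ctrl it was listed at 0 at d0 and d4 and was at 0.0900 FPKM at d10, 3.82 at d16D and 0.618 at d16V. Only the d16D libraries reached 1 FPKM, and ZIC4 entered the tests through those 2 libraries alone. ZIC1 exceeded ZIC4 by 6.84 to 10.4 times in the 4 day 16 libraries, with a median of 7.24. Across all 10 libraries the 2 genes had a Pearson correlation of 0.96 on the log2(FPKM + 1) scale, and ZIC4 stood at rank 36 of 15778 genes by its correlation with ZIC1.

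**Figure D2:**
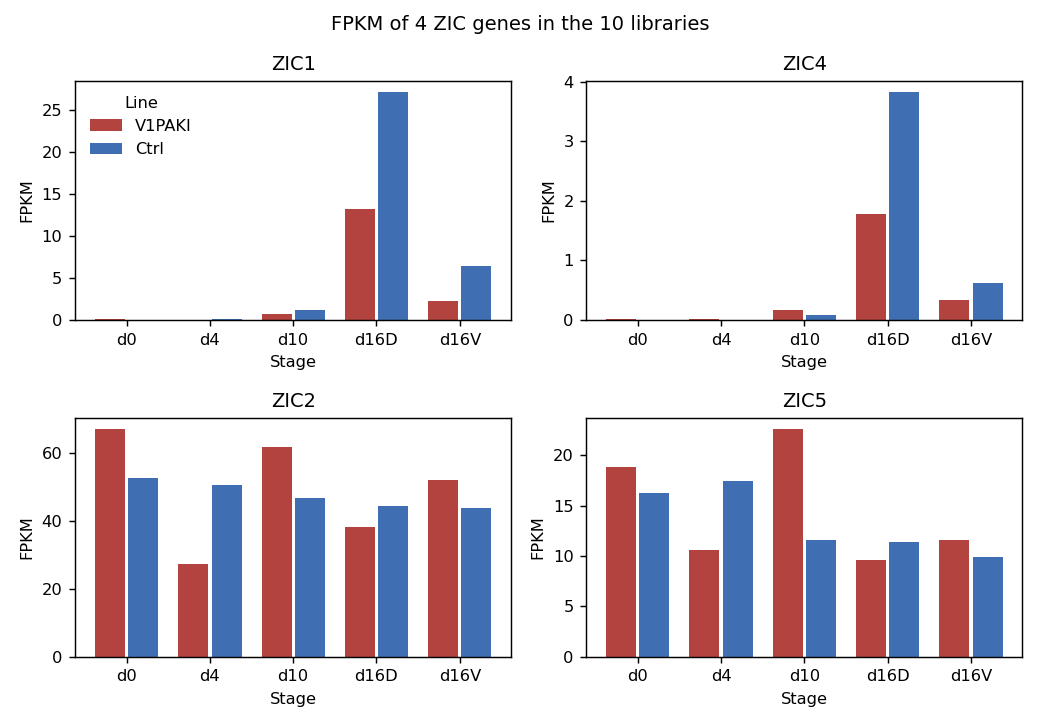
FPKM of ZIC1, ZIC4, ZIC2 and ZIC5 in the 10 libraries, with stage on the horizontal axis and 1 bar per library (V1PAKI red, Ctrl blue) on a vertical axis that starts at 0 and has its own scale in each panel. ZIC1 and ZIC4 peak at d16D in both lines, at 13.1 and 27.1 FPKM for ZIC1, while ZIC2 stays between 27.1 and 66.9 FPKM and ZIC5 between 9.62 and 22.6 FPKM.

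Among the steps between successive stages, the ZIC1 and ZIC4 pair passed the test at the step to d16D. Changes between stages were estimated with limma over both lines on log2(FPKM + 1), with line as a block, and a gene was called at a Benjamini-Hochberg adjusted p, taken over the 15779 genes, below 0.05. There was 1 library per line and stage, so the p-values reflect how the lines varied over the stages, not how repeated cultures vary. Between d16D and d10, ZIC1 rose by 3.33 (SE 0.33, adjusted p = 0.00732), a change of 3.02 in V1PAKI and 3.64 in Ctrl. ZIC4 rose by 1.70 (SE 0.26, adjusted p = 0.0353), by 1.25 in V1PAKI and 2.14 in Ctrl. Of all genes tested, 0.932% passed in this comparison, in either direction. ZIC4 was tested at all only because its d16D libraries reached 1 FPKM, so its call is a description and is not counted beside that share, and with no filter on low values neither gene passed. The ZIC4 call rests on its d16D libraries and was lost in 12 of 17 alternative settings, with adjusted p from 0.0102 to 0.214, while the ZIC1 call was lost in 4 of 18, with adjusted p from 0.00664 to 0.0752. Without the V1PAKI d16D library the changes were 3.63 for ZIC1 (adjusted p = 0.00945) and 2.08 for ZIC4 (adjusted p = 0.0102). Without the V1PAKI d10 library the adjusted p was 0.0702 for ZIC1, and without the Ctrl d10 library 0.0621. The Ctrl d10 library stood apart by its mesoderm and trophoblast marker sums, given below with the other cell types, and their part in these changes was not tested.

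At the earlier steps no member passed. Between d4 and d0 no member was called, where 0.818% of all genes were, and the log2 estimates were -0.00 for ZIC1 (SE 0.33) and -0.00 for ZIC4 (SE 0.26). Between d10 and d4 ZIC1 differed by 0.90 (SE 0.33, adjusted p = 0.248), being higher at d10 in both lines. In that comparison, too, no member passed, against 1.44% of all genes. With ZIC1 at 0.0209 and 0.103 FPKM at d4, this value depended on the pseudocount. It was 2.77 with a pseudocount of 0.1 (adjusted p = 0.0468) and 2.12 after rescaling to TPM (adjusted p = 0.0491).

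The hedgehog-treated arm had less ZIC1 and ZIC4 than the untreated arm in both lines, but the difference did not pass the test. ZIC1 was at 2.31 FPKM in d16V against 13.1 FPKM in d16D in V1PAKI, and at 6.43 FPKM in d16V against 27.1 FPKM in d16D in Ctrl. On the log2(FPKM + 1) scale these differences were -2.09 in V1PAKI and -1.92 in Ctrl. The estimate over both lines was -2.01 (SE 0.33, adjusted p = 0.0762). ZIC4 had an estimate of -1.31 (SE 0.26, adjusted p = 0.1505). No member was called, where 0.361% of all genes were, and in the 18 alternative settings the adjusted p of ZIC1 ran from 0.0624 to 0.852. Without the V1PAKI d16D library the estimates were -2.30 for ZIC1 (adjusted p = 0.136) and -1.70 for ZIC4 (adjusted p = 0.0707). Set against d10, ZIC1 was higher in d16V by 1.33 (SE 0.33, adjusted p = 0.110) and ZIC4 by 0.38 (SE 0.26, adjusted p = 0.447). Here too no member passed, against 0.811% of all genes.

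ZIC2 was abundant from the stem cell stage onward. It was at 66.9 FPKM in V1PAKI and 52.5 in Ctrl at d0, 27.1 in V1PAKI and 50.6 in Ctrl at d4, and 61.7 in V1PAKI and 46.6 in Ctrl at d10. It was at 38.1 FPKM in V1PAKI and 44.3 in Ctrl at d16D, and at 51.9 FPKM in V1PAKI and 43.9 in Ctrl at d16V. In Ctrl the 5 values lay between 43.9 and 52.5 FPKM, while in V1PAKI the d4 library was the lowest of all 10. The d4 values lay below the d0 values and the d16D values below the d10 values without overlap, and the other neighbouring stages overlapped. In Ctrl these gaps were small, 52.5 against 50.6 FPKM and 46.6 against 44.3 FPKM, and neither comparison passed the test. How many of all genes separate in this way was not counted. ZIC2 stood above 96.9% to 99.1% of all genes in every library, and its SD of log2(FPKM + 1), 0.36, was larger than that of 48.9% of the genes tested.

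ZIC5 ran alongside its neighbour at a lower level. It was at 18.9 FPKM in V1PAKI and 16.3 in Ctrl at d0, 10.6 in V1PAKI and 17.5 in Ctrl at d4, and 22.6 in V1PAKI and 11.64 in Ctrl at d10. It was at 9.62 FPKM in V1PAKI and 11.4 in Ctrl at d16D, and at 11.55 FPKM in V1PAKI and 9.93 in Ctrl at d16V. The values of d16D and of d16V lay below those of d0 and d10 without overlap, while d0, d4 and d10 overlapped with each other. The gap between d16V and d10 was narrow, 11.55 FPKM in V1PAKI d16V against 11.64 FPKM in Ctrl d10. For ZIC5, too, the share of all genes that separate in this way was not counted. In Ctrl, d0 and d4 were above d10 and both day 16 arms, whereas in V1PAKI d10 was the highest stage. The ratio of ZIC2 to ZIC5 was between 2.57 and 4.49 in the 10 libraries, with a median of 3.72.

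Neither gene of this pair passed in any comparison of stages. For ZIC2 the largest estimate was -0.66 between d4 and d0 (SE 0.32, adjusted p = 0.473), which came from V1PAKI (-1.27) more than from Ctrl (-0.05). For ZIC5 it was -0.68 between the mean of both day 16 arms and d0 (SE 0.30, adjusted p = 0.116), with -0.78 in V1PAKI and -0.57 in Ctrl. That last comparison, which pools 4 libraries of day 16 against 2 of d0, called 32.4% of all genes. In it ZIC1 rose by 3.22 (SE 0.29, adjusted p = 0.000481), while ZIC2 had an estimate of -0.41 (SE 0.27, adjusted p = 0.278). Outside day 16, ZIC1 reached 1 FPKM only in Ctrl d10, at 1.25 FPKM, so it met the filter only through the day 16 libraries. ZIC4 rose by 1.20 (SE 0.23, adjusted p = 0.00741), but it was tested only because its d16D libraries, part of the day 16 mean, reached 1 FPKM. The calls of ZIC1 and ZIC4 are thus descriptions here and are not counted beside the 32.4%. ZIC5 passed, at the same estimate, when a d10 library was left out (adjusted p = 0.0454 without V1PAKI d10 and 0.0445 without Ctrl d10). Without Ctrl d0 the change of ZIC4 was 1.07 and its adjusted p 0.0862.

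**Figure D3:**
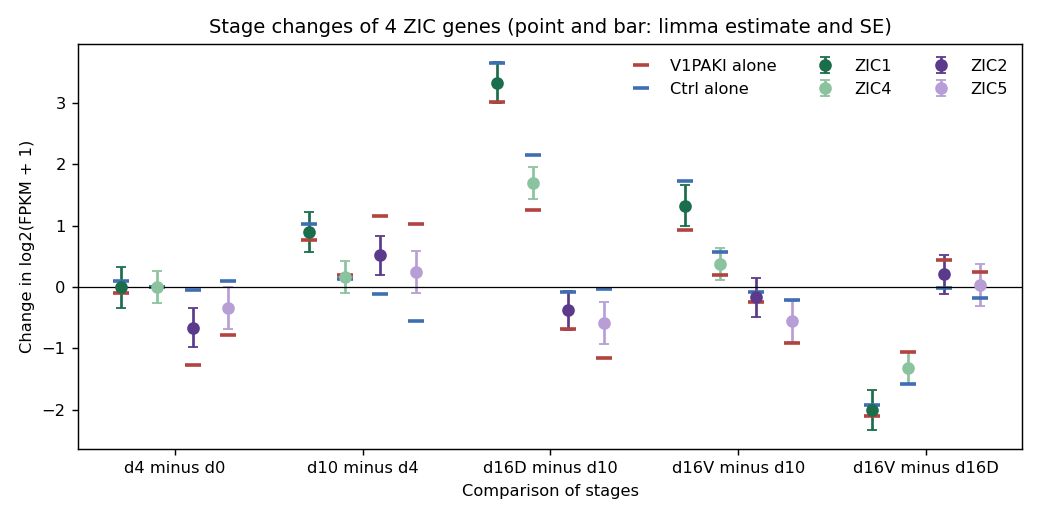
Change of each ZIC gene between stages in log2(FPKM + 1) on the vertical axis, for 5 comparisons on the horizontal axis. Points and bars are limma's estimate over both lines and its SE, and short dashes are the change in V1PAKI alone (red) and in Ctrl alone (blue). ZIC1 at 3.33 and ZIC4 at 1.70 between d16D and d10 are the values that passed, and for ZIC2 and ZIC5 the changes of the lines between d10 and d4 had opposite signs.

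The make-up of the family's RNA differed between the stages, with ZIC1 taking a visible share at day 16. The 4 genes together gave between 37.8 and 86.5 FPKM, with a median of 67.1. ZIC2 and ZIC5 made up nearly all of it until d10. ZIC1 contributed 21.0% of the sum in V1PAKI d16D and 31.3% in Ctrl d16D, but 3.50% in V1PAKI d16V and 10.6% in Ctrl d16V. The share of ZIC2 was lowest in d16D, at 60.8% in V1PAKI and 51.2% in Ctrl, and it was 78.5% in V1PAKI d16V and 72.1% in Ctrl d16V.

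**Figure D4:**
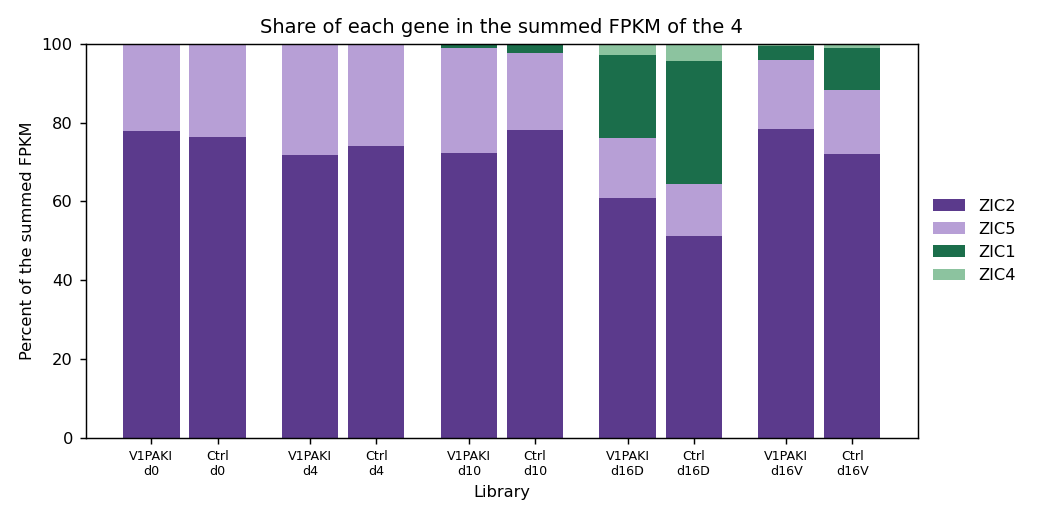
Share of each gene in the summed FPKM of the 4 ZIC genes, in percent, with 1 stacked bar per library and V1PAKI left of Ctrl at each stage. ZIC2 and ZIC5 fill the bars at d0 and d4, and ZIC1 takes 21.0% in V1PAKI and 31.3% in Ctrl at d16D.

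Between the lines, ZIC1 was lower in V1PAKI from d10 on, and the difference did not pass over the whole genome. ZIC1 was lower in V1PAKI at 4 of 5 stages, d0 being the exception, and Ctrl exceeded V1PAKI by 1.67 times at d10, 2.06 times at d16D and 2.78 times at d16V. At d0 and d4 the level was near 0 in both lines. Averaged over the stages, V1PAKI minus Ctrl came to -0.51 on the log2 scale (SD 0.55 over 5 stages; limma SE 0.21, unadjusted p = 0.0409, adjusted p = 1.00), and -0.39 without the V1PAKI d16D library. The same mean was -0.18 (SD 0.37) for ZIC4, -0.02 (SD 0.53) for ZIC2 and 0.08 (SD 0.58) for ZIC5, and V1PAKI was lower at 2 of 5 stages for each of these genes. No member passed, where 0.019% of all genes did, and 390 genes had an unadjusted p below 0.05. ZIC2 and ZIC5 were both higher in V1PAKI at d0, d10 and d16V and both lower in V1PAKI at d4 and d16D.

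At a given stage 1 library stood against 1, so the differences are described without a test, and a difference of 1 on the log2(FPKM + 1) scale is called 2-fold. ZIC1 at d16V was the only member past it, at -1.17, among 3 members with at least 1 FPKM in either library, and 2.90% of all such genes were past it. At d16D none of 4 members was past it, against 8.96% of genes. ZIC1 was at -0.99 there and ZIC4 at -0.80. These lay just inside the limit, and both passed it with a pseudocount of 0.1, at -1.04 for ZIC1 and -1.06 for ZIC4, and on TPM, at -1.02 for ZIC1 and -1.01 for ZIC4. At d10 none of 3 members was past it, against 11.2% of genes. ZIC5 came nearest at 0.90, and it was at 1.07 on TPM. At d4 ZIC2 was at -0.87 and ZIC5 at -0.68, so none of 2 members was past it, against 1.65% of genes. At d0 none of 2 was past it either, against 4.55% of genes.

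**Figure D5:**
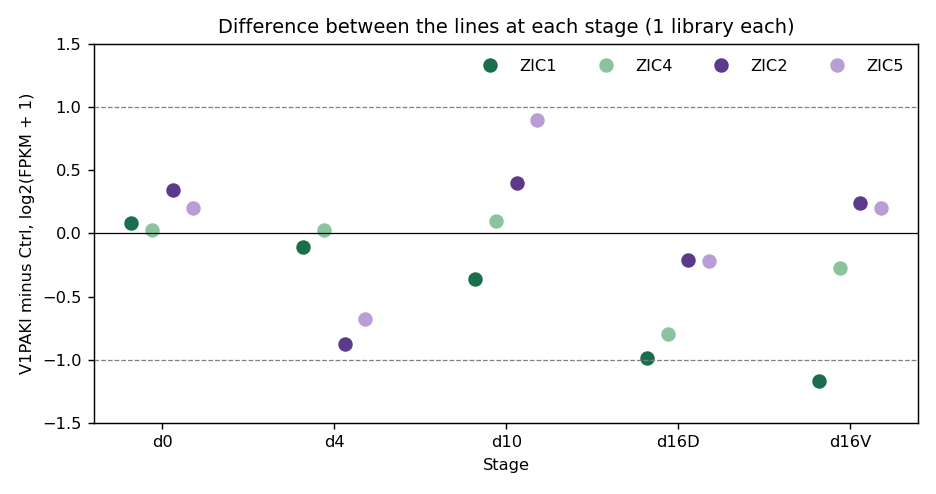
Difference between V1PAKI and Ctrl in log2(FPKM + 1) for each ZIC gene on the vertical axis, by stage on the horizontal axis, 1 library per line. Dashed lines mark a 2-fold difference. ZIC1 falls below the line at d16V with -1.17 and lies just inside it at d16D with -0.99. ZIC2 and ZIC5 both lie below 0 at d4 and both above 0 at d10.

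Markers of other cell types also differed between the lines, and not always in the direction of ZIC1. Meninges and mesenchyme, where ZIC1 is also expressed in the embryo, had the summed levels given above: higher in V1PAKI than in Ctrl at d16D, where ZIC1 was lower in V1PAKI, and lower in V1PAKI at d16V, where ZIC1 was lower as well. At d10 that sum was 171 FPKM in V1PAKI and 748 FPKM in Ctrl, with none of the 12 markers at 0 in either library. At the same stage the 12 mesoderm markers summed to 49.2 FPKM in V1PAKI and 260.5 FPKM in Ctrl, and the 10 trophoblast and amnion markers to 160 FPKM in V1PAKI and 519 FPKM in Ctrl. Ctrl d10 had the highest mesoderm sum and the highest trophoblast and amnion sum of the 10 libraries. In V1PAKI d16V, FOXC2 of this list and SOX17 of the endoderm list were listed at 0, and at d16D no marker of either list was at 0 in either line. The 12 neural crest markers summed to 90.1 FPKM in V1PAKI and 84.9 FPKM in Ctrl at d16D and to 51.9 FPKM in V1PAKI and 70.6 FPKM in Ctrl at d16V. The 16 neural progenitor markers summed to 530.5 FPKM in V1PAKI and 1027 FPKM in Ctrl at d16D and to 933 FPKM in V1PAKI and 838 FPKM in Ctrl at d16V. Per 1000 FPKM of that neural progenitor sum, a ratio chosen after the values were seen, ZIC1 was at 1.64 FPKM in V1PAKI and 3.795 FPKM in Ctrl at d10, at 24.8 FPKM in V1PAKI and 26.3 FPKM in Ctrl at d16D, and at 2.48 FPKM in V1PAKI and 7.68 FPKM in Ctrl at d16V. The ratio of ZIC1 to neural progenitor RNA was therefore lower in V1PAKI at d10 and d16V and near equal between the lines at d16D. In bulk RNA, fewer cells of a type and less RNA per cell cannot be told apart, and the part of these cell types in the ZIC values was not tested.

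The genes around the ZIC pairs did not share their levels. PLSCR1, a phospholipid scramblase gene 841 kb away on the ZIC4 side, was between 2.15 and 11.2 FPKM, highest at d4 in both lines. PLSCR5, 781 kb away, stayed at or below 0.630 FPKM. NPM1P28 and LINC02032, 174 and 661 kb away on the ZIC1 side, stayed at or below 0.0516 FPKM. ZIC4-AS1 was listed at 0 in every library other than Ctrl d16D, where it was at 0.00551 FPKM. On the ZIC5 side, CLYBL, which encodes a mitochondrial enzyme, was between 0.610 and 1.89 FPKM, and CLYBL-AS1 stayed at or below 0.146 FPKM. On the ZIC2 side, LINC00554 and ASNSP3 stayed at or below 0.197 FPKM. ZIC2 and ZIC5, at 9.62 FPKM or more in every library, were thus flanked by genes at 1.89 FPKM or less.

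The genes whose levels were most like those of each member over the 10 libraries differed between the pairs. For ZIC4 the nearest were EMX2OS, NEUROG1, EMX2, LINC00461 and MIR9-3HG, with Pearson correlations on log2(FPKM + 1) of 0.98 to 0.99. EMX2 is a homeobox gene of the dorsal telencephalon, EMX2OS is transcribed from its opposite strand, and NEUROG1 is a proneural factor. EMX2 was at 12.3 FPKM in V1PAKI and 24.2 FPKM in Ctrl at d16D, against 1.40 FPKM in V1PAKI and 1.64 FPKM in Ctrl at d16V, and NEUROG1 at 3.76 FPKM in V1PAKI and 6.74 FPKM in Ctrl at d16D. For ZIC1 they were TPPP3, THSD7A, GRK4, CD82 and C5orf49, at 0.98 each. TPPP3, a tubulin-binding protein gene, was at 4.03 FPKM in V1PAKI and 7.74 FPKM in Ctrl at d16D and at 1.48 FPKM in V1PAKI and 2.80 FPKM in Ctrl at d16V. Genes named here and for ZIC2 and ZIC5 below were picked for their likeness over the same 10 libraries, so shared differences follow from the choice. THSD7A, GRK4 and C5orf49 were low throughout, at or below 1.68 FPKM.

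For ZIC2 the nearest was PCLAF, a PCNA-binding factor of replicating cells, at 0.92, followed by ZBTB25, WDYHV1, AC087276.1 and MIS12, a kinetochore gene, down to 0.86. PCLAF was lowest in V1PAKI d4 at 6.55 FPKM, the library with the lowest ZIC2, and highest in V1PAKI d0 at 23.2 FPKM, the library with the highest. For ZIC5 they were DNAJC16, CPSF3, EIF3H, NRAS and MED21, at 0.94 each. ZIC5 itself stood at rank 71 by correlation with ZIC2 (0.75), and ZIC2 at rank 740 by correlation with ZIC5.

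Dorsal forebrain and midline genes changed in the same comparison as ZIC1 and ZIC4. Of 10 dorsal telencephalon genes tested, out of 12 listed, 6 rose and none fell between d16D and d10, where 0.932% of all genes were called. The median change of the 10 was 2.24 against 0.03 for all genes. NEUROG1, 1 of the 6, was at 3.76 FPKM in V1PAKI and 6.74 FPKM in Ctrl at d16D and below 1 FPKM elsewhere. It was thus tested only through d16D, so its rise is a description. EMX2 rose by 3.53 (adjusted p = 0.00359), FEZF2, a cortical patterning gene, by 3.41 (adjusted p = 0.00359) and DMRTA2, a medial cortex gene, by 3.05 (adjusted p = 0.00605). Of 18 genes of the dorsal midline, roof plate and cortical hem, 4 rose and none fell, with a median of 1.02: WNT8B, a hem signal, by 3.51 (adjusted p = 0.0229), the WNT agonist RSPO1 by 2.42 (adjusted p = 0.0156), WNT1 by 2.20 (adjusted p = 0.0314) and the roof plate factor LMX1A, named after its value was seen, by 1.40 (adjusted p = 0.0411). WNT8B was at 32.7 FPKM in V1PAKI and 12.9 FPKM in Ctrl at d16D, so it was higher in V1PAKI where ZIC1 was lower. Of 6 midbrain, hindbrain and cerebellar genes tested, out of 12 listed, 1 rose, BARHL1, a cerebellar factor. None of 12 neural crest genes and none of 15 genes of the forebrain midline linked to holoprosencephaly, ZIC2's own disease, was called at this step.

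Between d16V and d16D, 4 of 10 dorsal telencephalon genes fell (median -1.42 against 0.01 for all genes), among them EMX2 by 2.86 (adjusted p = 0.00954), DMRTA2 by 2.59 (adjusted p = 0.0145) and DMRT3 by 1.99 (adjusted p = 0.0111). DMRT3 differed by 0.05 between d16V and d10, against 2.04 between d16D and d10. Its call thus rests on the d16D libraries and is a description. NEUROG1, also among the 4, was tested only through d16D, so its fall is a description too. Of the 18 dorsal midline genes 1 fell, RSPO1 by 2.81 (adjusted p = 0.0133), and the median was -1.46. ZIC1 at -2.01 lay farther from 0 than both medians, and ZIC4 at -1.31 lay nearer to 0. Of 11 ventral forebrain genes 4 rose, where 0.361% of all genes were called in this comparison. NKX2-2 rose by 4.56 (adjusted p = 8.79e-05). It differed by -0.10 between d16D and d10, against 4.46 between d16V and d10. The NKX2-2 call thus rests on the d16V libraries and is a description. NKX2-1, at 5.74, is counted among the 4, but its level was used above to read d16V as the treated arm. Its rise is therefore no separate result. Of the 15 holoprosencephaly genes 2 rose, PTCH1 and SHH, and 1 fell, CDON. The level of PTCH1 was also used to read d16V as the treated arm, so its rise is no separate result either. PAX2 rose and no other of the 6 midbrain, hindbrain and cerebellar genes passed, and none of 12 neural crest genes was called.

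Of 5 GLI and GLIS genes tested, relatives of the ZIC family by their zinc fingers, 1 passed between d16V and d16D, GLI1. Of all genes, 0.361% passed in this comparison. GLI1, the transcriptional target and activator of the hedgehog pathway, was at 13.2 FPKM in V1PAKI d16V and 11.6 FPKM in Ctrl d16V, against 2.86 FPKM in V1PAKI d16D and 0.588 FPKM in Ctrl d16D. It rose by 2.44 in d16V (SE 0.36, adjusted p = 0.0492). GLI3, which mainly acts as a repressor without hedgehog signal, was at 6.08 FPKM in V1PAKI d16V and 6.78 FPKM in Ctrl d16V, against 18.9 FPKM in V1PAKI d16D and 31.9 FPKM in Ctrl d16D. Its estimate of -1.78 (SE 0.28, adjusted p = 0.0633) missed the threshold. GLI2, another effector of the pathway, had an estimate of -0.17 (SE 0.25, adjusted p = 1), at 11.4 FPKM in V1PAKI d16V and 8.56 FPKM in Ctrl d16V, against 8.98 FPKM in V1PAKI d16D and 14.1 FPKM in Ctrl d16D. GLI3 and ZIC1 thus shared the order of the arms in both lines, and both were lower in V1PAKI than in Ctrl at d16D and at d16V. Among 12 hedgehog pathway genes 4 rose and 1 fell: the receptor PTCH1 rose by 3.19 (adjusted p = 0.00222), SHH by 2.62 (adjusted p = 0.0369) and the hedgehog-binding inhibitor HHIP by 2.097 (adjusted p = 0.0133), and the coreceptor CDON fell by 1.84 (adjusted p = 0.0117). PTCH1 had served to read the arm, so its rise is no separate result. Between d16D and d10, SHH differed by 0.23 and HHIP by 0.05, against 2.85 and 2.15 between d16V and d10. Their calls thus rest on the d16V libraries and are descriptions. No gene of the GLI and GLIS list or of the hedgehog list was called between the lines, where 0.019% of all genes were. With so small a share, the lack of a call says nothing particular about these lists.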

How the data were processed

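The authors deposited FPKM values for 42335 gene symbols in 10 libraries, prepared from Trizol-extracted RNA by TruSeq, per the labels' protocols. The submitters' processing notes list cutadapt 1.18, Cufflinks and HISAT2 2.1.0 on GRCh38. Which annotation was used and how strand was handled is not given in the sources used here. For 21437 genes, 3 of the 4 members among them, a value has more than 6 decimals, so it may combine several values. All 10 columns were matched to samples by name, and no pair of libraries held identical values. A gene shown as 0 is described as listed at 0, and neither counting intervals nor floors could be given because depth is unknown.

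The log2 scale carried a pseudocount of 1, which understates changes of low genes. A gene was tested if 2 libraries or more had 1 FPKM or more, which kept 15779 genes and all 4 members. The fit used limma 3.58.1 in R 4.3.3 (eBayes with trend), with stage and line as terms and 4 residual degrees of freedom (7.77 moderated). Tests were two-sided and adjusted by Benjamini-Hochberg over all genes tested, with a threshold of 0.05. The script was tested on simulated data. Genes named beside the members were the 5 most like each member, up to 4 genes with the largest change per list, flanking genes, SOX1 and SOX1-OT. The 15 gene lists hold 179 distinct genes, all in the table, and are described by counts and medians with no set test. A list gene that reached 1 FPKM only at the stage where it was high was tested through that stage alone. The counts and medians of the lists are therefore descriptions. Members and lists were chosen with earlier results of these data known. Gene positions and promoters came from RefSeq (GRCh38.p14), which matched all 4 members, and transcript overlaps from GENCODE 29. Alternatives were pseudocounts of 0.1 and 0.01, no filter, a filter at 5 FPKM, rescaling to TPM, median-of-ratios scaling, no trend, no line term, day 16 arms averaged, and leaving out each library.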

Additional observations from a re-analysis of the deposited data

Results flagged for a closer look

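In 3 cases the lines changed in opposite directions between stages by at least 0.1 each on the log2(FPKM + 1) scale, with 1 library on each side, so the difference was not tested. Between d10 and d4, ZIC2 changed by 1.16 on the log2(FPKM + 1) scale in V1PAKI and by -0.11 in Ctrl, a difference of 1.27. Between the same stages ZIC5 changed by 1.03 in V1PAKI and by -0.55 in Ctrl, a difference of 1.58. Both follow the low V1PAKI d4 library, at 27.1 FPKM for ZIC2 and 10.6 FPKM for ZIC5, and the V1PAKI d10 library, at 61.7 and 22.6 FPKM. Between d16V and d16D, ZIC5 changed by 0.24 in V1PAKI and by -0.18 in Ctrl, a difference of 0.42.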

How the results depend on the processing

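ZIC1 kept its direction in all 18 alternatives between d16D and d10 and between day 16 and d0, and ZIC4 in all 17, having no value at a filter of 5 FPKM. The ZIC4 calls counted below are descriptions, because ZIC4 was tested only through its d16D libraries. The ZIC1 call between day 16 and d0 is a description as well, because ZIC1 met the filter only through the day 16 libraries. Between d16D and d10 the 2 calls became 1 with a pseudocount of 0.1, 0 with a pseudocount of 0.01, 0 with no filter and 1 with a filter of 5 FPKM, and leaving out a library gave 0 to 2. Between day 16 and d0 the 2 calls became 1 with a filter of 5 FPKM, and 1 to 3 when a library was left out. Between d10 and d4 the count of 0 became 1 (ZIC1) with a pseudocount of 0.1 and 1 with TPM. Members past 2-fold between the lines, 0 at d16D, became 2 with a pseudocount of 0.1 and 2 with TPM, and at d10 0 became 1 with TPM. The line difference of ZIC4 turned to 0.37 with a pseudocount of 0.01. Leaving out single libraries turned small estimates round: d4 against d0, ZIC1 between -0.37 and 0.37, ZIC4 between -0.13 and 0.13 and ZIC5 between -0.81 and 0.13; d10 against d4, ZIC2 between -0.012 and 1.05, ZIC4 between -0.015 and 0.34 and ZIC5 between -0.27 and 0.75; d16V against d10, ZIC2 between -0.43 and 0.095; d16V against d16D, ZIC5 between -0.16 and 0.22; line difference, ZIC2 between -0.13 and 0.19 and ZIC5 between -0.12 and 0.27. The cause was not tested. When a library is left out, the lone one left at its stage is assumed to vary like the others. TPM moved the median change of all genes by 0.13 between d10 and d4, 0.10 between d16V and d10 and 0.21 between day 16 and d0, and the filter of 5 FPKM moved the last by -0.12. Depth is unknown, which limits what can be said of ZIC4 below 1 FPKM.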

Other observations

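At the step at which ZIC1 and ZIC4 rose, d16D against d10, 5 of 16 neural progenitor genes rose and none fell (median 1.30 against 0.03 for all genes), and 4 of 11 neuron genes rose (median 1.68), NEFM, a neurofilament gene, by 2.71 and NHLH1, a factor of newborn neurons, by 2.84. Of 16 pluripotency genes 4 fell (median -1.54). Of all genes tested, 0.932% were called at this step, in either direction. Of 11 ventral forebrain genes 2 rose, of 9 endoderm genes 1 rose, ALB, and of 10 trophoblast and amnion genes 1 fell, CGA. None of 9 genes of meninges and mesenchyme and none of 10 mesoderm genes passed, and the summed levels of these lists differed between d16D and d10 in opposite directions in the lines, as did that of the trophoblast and amnion list. Over all 12 markers of the list, tested or not, mesoderm summed to 175.8 FPKM at d16D against 49.2 FPKM at d10 in V1PAKI, and to 14.3 FPKM at d16D against 260.5 FPKM at d10 in Ctrl. The meninges and mesenchyme sum, likewise over 12 markers, was 1103 FPKM at d16D against 171 FPKM at d10 in V1PAKI, and 181 FPKM at d16D against 748 FPKM at d10 in Ctrl. The trophoblast and amnion sum was 244 FPKM at d16D against 160 FPKM at d10 in V1PAKI, and 33.6 FPKM at d16D against 519 FPKM at d10 in Ctrl. The part of these sums in the ZIC values was not tested. Between d16V and d16D, FOXD1 rose by 2.91 (adjusted p = 0.0117) and was the 1 gene of the meninges and mesenchyme list that passed.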
